A study of Mus musculus with 32 samples.

Results

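The comparison set mouse XEN cells labelled XRRc_XiKO against XEN cells labelled XRRc_XaKO, 2 samples each of the 32 samples in 12 groups of the study. XEN cells are stem cell lines of the extraembryonic endoderm, and the strain given for these is 129S1/SvImj X JF1/Ms. By the labels, the element called XRRc was knocked out on the inactive X (Xi) in one group and on the active X (Xa) in the other. The labels state no treatment and give neither the position nor the size of XRRc, and they do not say whether a group is 1 clone. The same table holds the XRRb_XaKO and XRRb_XiKO groups, which carry a knockout of another element, XRRb, and are shown beside the XRRc groups as 2 further columns. Wild-type (WT) cells of the same cross are in a table of their own and are used for Xi shares only.

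Genes entered when their Xa plus Xi expression averaged 1 FPKM or more over the 4 groups of the table, which left 261 of 953 listed X-linked genes. FPKM is the number of fragments scaled by transcript length and library total. Just inside that limit lay Xpnpep2 at 1.00 FPKM, 2810403D21Rik at 1.01 FPKM and Diap2 at 1.03 FPKM, and outside but close to it lay Tspyl2 at 0.985 FPKM and Xlr4a at 0.953 FPKM. Each group is present as 1 merged value per gene and allele. Differences are therefore between single values without an SD or a p-value, and the depth behind them is unknown. A gene "rose" or "fell" where its log2(FPKM + 0.5) differed by 1 or more in XRRc_XiKO minus XRRc_XaKO. On this scale the change of a gene with low FPKM comes out too small. The Xi share is the Xi FPKM as a percentage of Xa plus Xi FPKM.

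Female mammals balance X-linked dosage by silencing one X in each cell. The noncoding RNA Xist coats the chromosome that is silenced, most of its genes are shut down, and a minority, the escape genes, go on being transcribed from it. In the mouse extraembryonic lineages the silenced X is the one inherited from the father. The comparison asks whether gene expression on either X differs when XRRc is missing from the Xi or from the Xa.

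The table lists X-linked genes only, so the autosomal factors that define extraembryonic endoderm were not analysed here. Of the X-linked list of extraembryonic and lineage genes, 25 were in the table, with a summed level of 499 to 617 FPKM per group, led by the transcriptional coregulator Cited1 at 103 to 140.4 FPKM. Of these 25, 10 were listed at 0 in all 4 groups, among them Rhox6, Rhox9, Srpx2 and Dusp9. All 7 X-linked markers of pluripotent cells were listed at 0 in the 4 groups. Of 6 trophoblast markers 4 were at 0 in all 4 groups (Rhox6, Rhox9, Rhox4b and Cdx4). The sum was 2.1 to 3.85 FPKM, with 2.43 FPKM in XRRc_XaKO and 2.12 FPKM in XRRc_XiKO. Most of it came from Plac1, which was expressed at 1.65 to 2.52 FPKM and was the 1 trophoblast marker among the tested genes. Of 13 neural and mesenchymal markers 8 were at 0, with sums of 1.12 to 1.54 FPKM. The highest of them was Pcdh19 at 0.926 to 1.28 FPKM, also a tested gene.

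Expression from the Xi as a whole was close in the XRRc_XiKO and XRRc_XaKO columns. Xist stood on the Xi at 9.74 FPKM in XRRc_XiKO and 8.35 FPKM in XRRc_XaKO, beside 10.9 FPKM in XRRb_XaKO and 6.72 FPKM in XRRb_XiKO, and at 0.011 FPKM or less on the Xa in each. Both XRRc values lay between those of the XRRb groups. Summed over the tested genes, the Xi gave 9.91% of the FPKM in XRRc_XiKO and 9.84% in XRRc_XaKO, against 9.93% in XRRb_XaKO, 10.7% in XRRb_XiKO and 9.39% in WT. The ribosomal protein gene Rps4x alone made up 63.1% and 63.5% of the Xi FPKM in XRRc_XiKO and XRRc_XaKO. Rps4x has near-identical copies on other chromosomes, so its value is uncertain. Without Rps4x, Xist and Tsix, the Xi share of the sum was 4.11% in XRRc_XiKO and 4.09% in XRRc_XaKO.

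Genes listed at 0 on the Xi numbered 173 in XRRc_XiKO and 176 in XRRc_XaKO, beside 168 in each XRRb group and 170 in WT. The zeros were largely the same genes, since 149 were listed at 0 in both XRRc columns and 121 in all 4 groups. Another 27 genes were listed at 0 in XRRc_XaKO but not in XRRc_XiKO. Of these, 26 stayed under 0.5 FPKM in XRRc_XiKO, and the highest was Gripap1 at 0.605 FPKM. In the other direction there were 24 genes, 22 of them under 0.5 FPKM in XRRc_XaKO, with Cetn2 the highest at 4.08 FPKM. An Xi share of 10% or more was reached by 32 genes in XRRc_XiKO and 30 in XRRc_XaKO. The genes that made the difference were Gripap1 and Chm, a Rab escort protein gene whose share was 10.1% in XRRc_XiKO and 8.19% in XRRc_XaKO.

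On the Xi, 2 of 261 genes rose, Tceal8 and Gripap1 (0.766%), and 4 fell, Cetn2, Gm5643, Ccdc22 and Morf4l2 (1.53%). On the Xa, 3 rose, Armcx1, Itm2a and Hs6st2 (1.15%), and 3 fell, Tsix, 4933402E13Rik and Gpc3 (1.15%). These percentages are the share of all tested genes past the limit, and no gene passed it on both chromosomes. On the Xi most of the 261 genes could not pass it, because a gene under 0.5 FPKM in both columns cannot reach a change of 1. In each XRRc column, 32 genes stood at 1 FPKM or more on the Xi. The percentages on the Xi and the Xa are therefore not directly comparable. The median change was 0 on the Xi, where 149 genes had a change of exactly 0, and -0.05 on the Xa, with quartiles of -0.14 and 0.06. A change of 0.5 or more in size was measured for 17 genes on the Xi and 9 on the Xa.

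**Figure D1:**
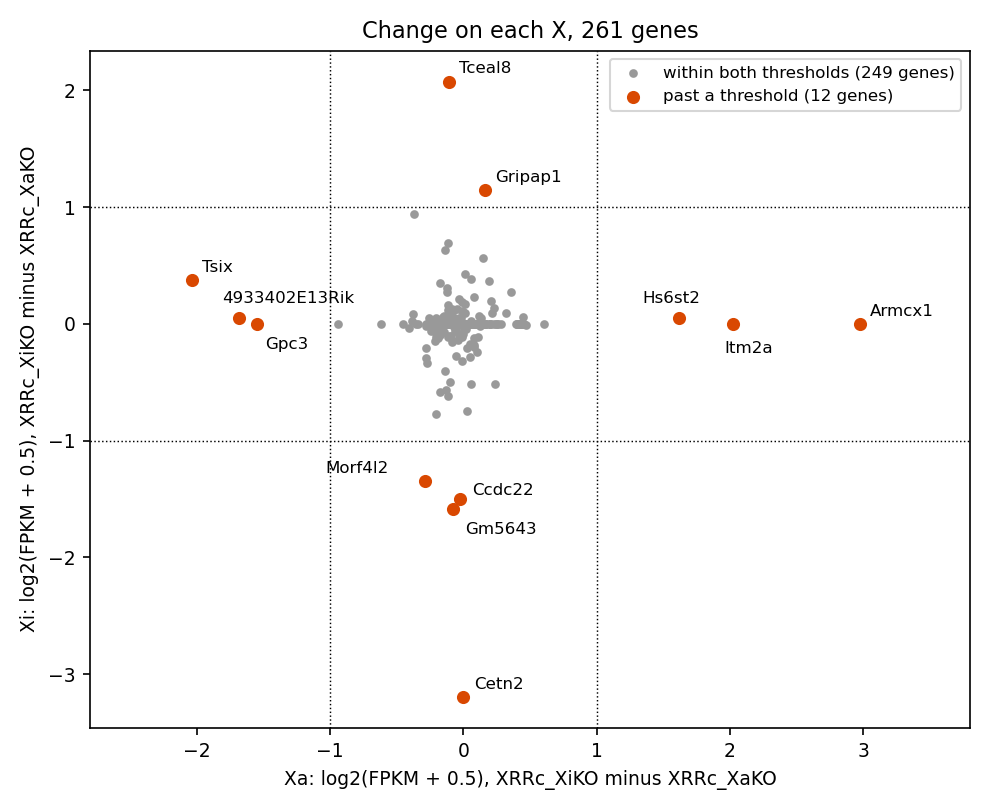
Change of each of 261 genes on the Xa (horizontal axis) and on the Xi (vertical axis), as log2(FPKM + 0.5) in XRRc_XiKO minus XRRc_XaKO, with dotted lines at the limits of 1. The 12 named genes lie along one axis or the other, 6 past the limit on the Xi and 6 on the Xa, while 249 genes lie inside both.

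Other pairs of columns in the same table gave counts of the same order. XRRb_XiKO against XRRb_XaKO, a pair that shares no column with the XRRc pair, put 5 genes past the limit on the Xi (1.92%) and 8 on the Xa (3.07%). XRRc_XiKO gave 6 genes on the Xi (2.30%) and 5 on the Xa (1.92%) against XRRb_XaKO, and 7 (2.68%) and 4 (1.53%) against XRRb_XiKO. XRRc_XaKO gave 4 (1.53%) and 5 (1.92%) against XRRb_XaKO, and 6 (2.30%) and 3 (1.15%) against XRRb_XiKO. Counts of the size seen between the 2 XRRc groups were thus also found between groups with different elements deleted, and between deletions on the same X.

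The promoters of 4 protein-coding genes that changed on the Xi, those with 1 RefSeq window each (Morf4l2 has 4), are printed to show the sequence around each start site, since those of silenced genes on the Xi are commonly methylated at CG dinucleotides. Each runs 5′ to 3′ on the gene's strand from 250 bases before to 50 bases after the RefSeq start, in the GRCm38.p6 reference and not in the 129S1/SvImj or JF1/Ms sequence, and capitals mark CG. The windows are chrX:136172202-136172501 (minus strand) for Tceal8, chrX:7789743-7790042 (plus) for Gripap1, chrX:7605371-7605670 (minus) for Ccdc22 and chrX:72918295-72918594 (minus) for Cetn2.
Tceal8: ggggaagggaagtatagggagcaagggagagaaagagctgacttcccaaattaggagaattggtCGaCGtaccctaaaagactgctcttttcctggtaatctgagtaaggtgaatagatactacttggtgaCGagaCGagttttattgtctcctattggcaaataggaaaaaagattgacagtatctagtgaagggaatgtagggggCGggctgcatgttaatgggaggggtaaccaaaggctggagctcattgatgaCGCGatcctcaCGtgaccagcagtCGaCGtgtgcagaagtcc
Gripap1: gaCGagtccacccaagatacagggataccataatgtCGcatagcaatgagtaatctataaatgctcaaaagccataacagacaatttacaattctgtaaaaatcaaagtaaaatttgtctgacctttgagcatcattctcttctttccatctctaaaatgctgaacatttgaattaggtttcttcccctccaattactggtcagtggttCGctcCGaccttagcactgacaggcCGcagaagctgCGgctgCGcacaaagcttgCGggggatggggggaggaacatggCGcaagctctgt
Ccdc22: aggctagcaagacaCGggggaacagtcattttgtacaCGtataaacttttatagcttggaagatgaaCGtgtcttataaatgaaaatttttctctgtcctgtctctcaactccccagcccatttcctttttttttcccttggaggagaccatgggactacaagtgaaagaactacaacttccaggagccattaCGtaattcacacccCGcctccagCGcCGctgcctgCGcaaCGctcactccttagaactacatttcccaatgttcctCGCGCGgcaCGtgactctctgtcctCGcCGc
Cetn2: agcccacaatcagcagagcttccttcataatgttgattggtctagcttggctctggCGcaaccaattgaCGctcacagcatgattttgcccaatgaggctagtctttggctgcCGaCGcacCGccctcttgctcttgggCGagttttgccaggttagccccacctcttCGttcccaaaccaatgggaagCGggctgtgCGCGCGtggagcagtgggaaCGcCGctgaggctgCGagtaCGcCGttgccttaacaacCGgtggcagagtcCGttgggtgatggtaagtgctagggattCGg
They hold 10 CG (Tceal8), 9 (Gripap1), 15 (Ccdc22) and 19 (Cetn2). The 297 windows of the 231 tested genes with a RefSeq promoter had a median of 16 CG, and the 32851 windows of all genes a median of 7. The letters CCATNTT, a core of the motif of YY1, occurred on either strand in 1 of the 8 windows of the genes that changed on the Xi (12.5%), that of Gripap1, in 19.2% of tested windows and in 16.1% of all. The letters CCCTC, part of the CTCF motif, were in 6 of those 8 windows (75%), in 76.1% of tested and in 66% of all. The searches allowed overlapping matches, and Gm5643 has no RefSeq promoter entry.

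Tceal8, of the Tceal family of transcription elongation factor A-like proteins, had the larger rise on the Xi. Its Xi level was 1.83 FPKM in XRRc_XiKO and 0.053 FPKM in XRRc_XaKO, against 5.46 FPKM in XRRb_XaKO and 38.2 FPKM in XRRb_XiKO. The change was 2.08. XRRc_XaKO was the lowest column and XRRc_XiKO the next lowest, so the higher of the XRRc values was still under both XRRb values. The Xi share of Tceal8 was 1.28% in XRRc_XiKO, 0.0347% in XRRc_XaKO and 2.91% in WT, and its Xa level differed by -0.11. In such bulk samples, fewer cells that use a copy and less RNA per cell cannot be told apart. Its tested family members stayed within the limit on the Xi: Bex1 differed by -0.21, Ngfrap1 by -0.29 and Bex2 by 0.63. Wbp5, the member with the highest Xi level, differed by -0.07, from 161.3 to 153.4 FPKM.

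Gripap1, which encodes a protein of recycling endosomes, was listed at 0 on the Xi in XRRc_XaKO and XRRb_XaKO, at 0.201 FPKM in XRRb_XiKO and at 0.605 FPKM in XRRc_XiKO. XRRc_XiKO was the highest of the 4 columns. Its change of 1.14 depends on the pseudocount, since one side is listed at 0. The Xi share went from 0 to 14.1%, where WT had 2.27%, and the Xa level was 3.24 FPKM in XRRc_XaKO and 3.68 FPKM in XRRc_XiKO. A gene that came close to the limit was Pdzd11, a PDZ domain protein gene, listed at 0 in XRRc_XaKO and at 0.457 FPKM in XRRc_XiKO (0.94). Its XRRb_XiKO value of 0.367 FPKM was near that of XRRc_XiKO.

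Ccdc22, a subunit of a protein complex for endosomal sorting, fell on the Xi from 7.55 FPKM in XRRc_XaKO to 2.34 FPKM in XRRc_XiKO, a change of -1.50. In XRRb_XaKO and XRRb_XiKO it stood at 0.627 and 0.508 FPKM. The XRRc_XaKO column was thus above the other 3, and XRRc_XiKO was itself above both XRRb groups. The Xi share was 38.4% in XRRc_XaKO, 16.5% in XRRc_XiKO, 4.96% in XRRb_XaKO, 4.36% in XRRb_XiKO and 20% in WT. The Xa level of Ccdc22 was between 11.1 and 12.1 FPKM in the 4 groups. In the GENCODE M21 annotation, 86.3% of its exon bases overlap the transcript Gm36995 on the same strand, so fragments of the pair may have been divided between them.

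Ccdc22 and Gripap1 are near each other in the gene order of the proximal X, with Plp2, Gpkow, Wdr45, Praf2, Ccdc120 and Tfe3 as the tested genes between them. These neighbours did not follow either gene past the limit. Wdr45, an autophagy gene, differed on the Xi by -0.58 with a share of 32.6% in XRRc_XaKO and 26.4% in XRRc_XiKO. Ccdc120 differed by -0.20 with shares of 24.6% and 20.1%, and Gpkow by -0.17 with shares of 50.5% and 46.4%. Tfe3, a transcription factor of lysosome genes, moved the other way in share, from 32.2% to 36.5%, with an Xi difference of -0.02. Praf2, and Otud5 next in the order after Gripap1, were listed at 0 on the Xi in all 4 groups, so genes with high Xi shares and genes at 0 lie side by side there. Of the 22 tested genes of the wider neighbourhood, Gripap1 was the 1 that rose and Ccdc22 the 1 that fell on the Xi, with a median change of 0. None passed the limit on the Xa, where the median was 0.01. Among all 261 tested genes, 2 rose (0.766%) and 4 fell (1.53%) on the Xi, also with a median of 0.

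**Figure D2:**
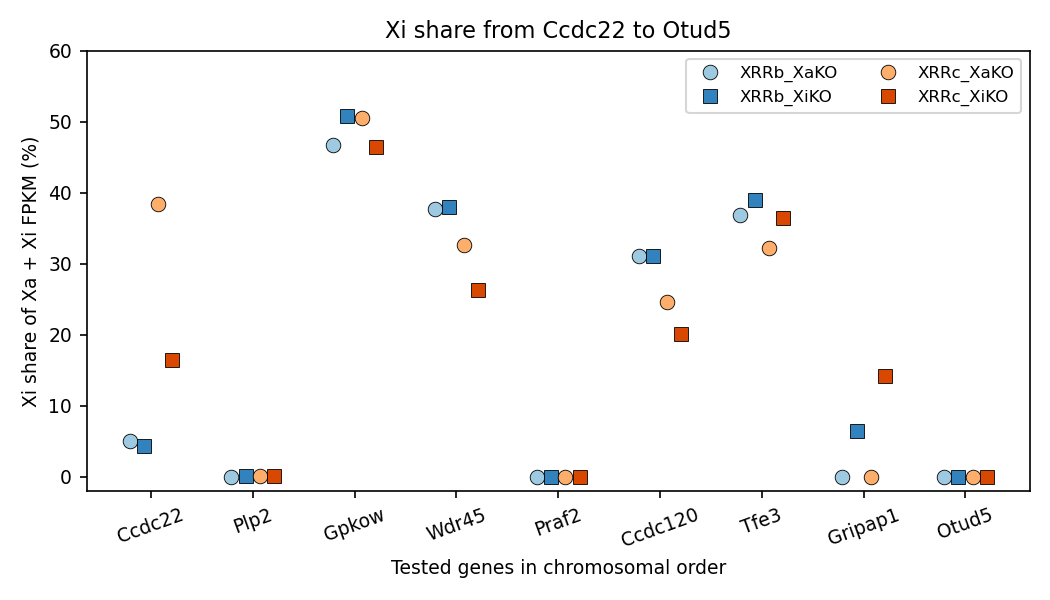
Xi share (percent of Xa plus Xi FPKM, vertical axis) of tested genes from Ccdc22 to Gripap1 and the next gene in RefSeq order (horizontal axis), 1 merged value per group. Ccdc22 ranges from 4.36% to 38.4% between the groups, while Praf2 is at 0 in all 4.

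Cetn2, which encodes a centrin of the centrioles, was listed at 0 on the Xi in XRRc_XiKO, XRRb_XaKO and XRRb_XiKO and at 4.08 FPKM in XRRc_XaKO, where its share was 9.03%. The XRRc_XaKO column was the one that differed. The size of its change, -3.20, is set by the pseudocount. The Xa level was 41.1 FPKM in both XRRc groups. Its neighbour Nsdhl, an enzyme of cholesterol synthesis, lies on the opposite strand, and the printed Cetn2 window shares 276 bases with that of Nsdhl. Nsdhl differed by -0.11 on the Xi, with shares of 8.89% in XRRc_XaKO and 9.24% in XRRc_XiKO, so the genes on the 2 sides of this common promoter window differed in their Xi values. Of the 8 tested genes for centrosome, mitosis and cohesin, Cetn2 was the 1 that fell and none rose on the Xi. The shares over all 261 tested genes were 1.53% for falls and 0.766% for rises. The kinetochore gene Cenpi differed by 0.23.

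Morf4l2, a chromatin protein found in a histone acetyltransferase complex, fell on the Xi, with a change of -1.35. Its Xi levels were 4.77 FPKM in XRRc_XiKO, 12.9 FPKM in XRRc_XaKO, 2.52 FPKM in XRRb_XaKO and 15.9 FPKM in XRRb_XiKO. Both XRRc values lay inside the range of the XRRb groups. On the Xa it stood at 304.8 FPKM in XRRc_XiKO and 372.4 FPKM in XRRc_XaKO. Gm5643, whose transcript closely matches that of the splicing factor gene Hnrnpa1, was listed at 0 in XRRc_XiKO and at 0.998 FPKM in XRRc_XaKO, against 1.21 and 3.07 FPKM in XRRb_XaKO and XRRb_XiKO. Morf4l2 and Gm5643 each have a near-identical copy on another chromosome, so their values are uncertain. Next below the limit among the falls were the glycolysis gene Pgk1 (-0.77) and 3830403N18Rik (-0.75).

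**Figure D3:**
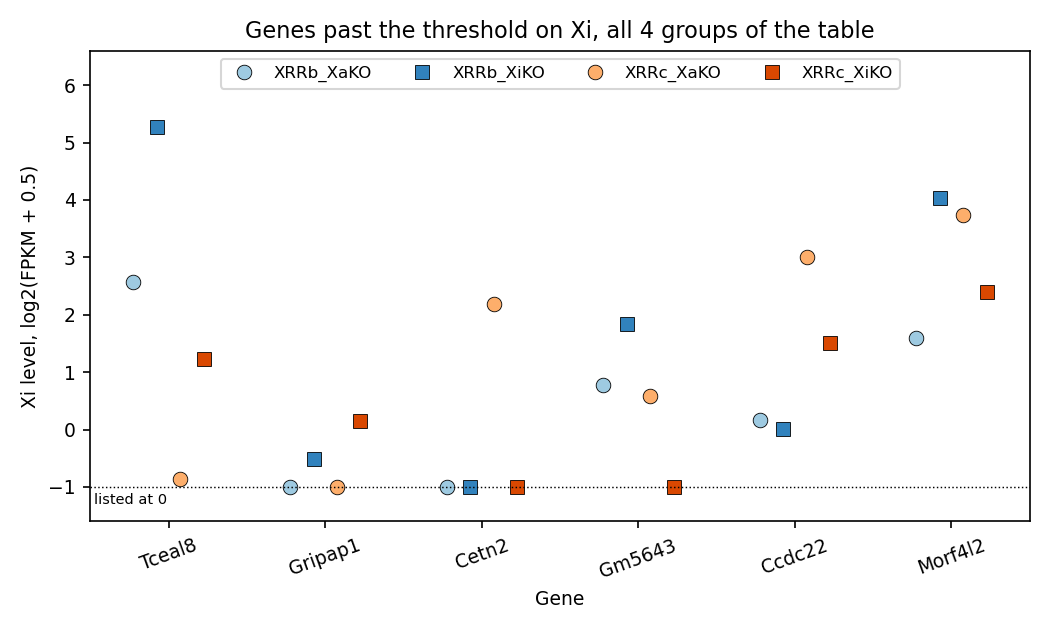
Xi level (log2(FPKM + 0.5), vertical axis) of the 6 genes past the limit on the Xi, 1 merged value for each of the 4 groups. Tceal8 is lowest and Ccdc22 and Cetn2 are highest in XRRc_XaKO, while Morf4l2 in both XRRc groups lies between its XRRb values.

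Hs6st2, an enzyme that adds sulfate to heparan sulfate chains, rose on the Xa from 3.54 FPKM in XRRc_XaKO to 11.9 FPKM in XRRc_XiKO, a change of 1.62. XRRb_XaKO had 2.31 and XRRb_XiKO 7.17 FPKM, so XRRc_XiKO was the highest. Gpc3, a glypican that carries such chains on the cell surface, fell from 30.4 to 10.02 FPKM (-1.55), beside 9.18 FPKM in XRRb_XaKO and 20.0 FPKM in XRRb_XiKO. Here XRRc_XaKO was the highest, and XRRc_XiKO was close to XRRb_XaKO. Gpc4, another glypican, stayed just under the limit at 1.60 FPKM in XRRc_XiKO and 3.54 FPKM in XRRc_XaKO (-0.95). Of the 4 tested glypican and heparan sulfate genes, 1 rose and 1 fell on the Xa, with a median of -0.49, and none changed on the Xi. Over all 261 tested genes, 3 rose and 3 fell on the Xa (1.15% each), with a median of -0.05. A list of 4, chosen with earlier results of these data known, is too short to set against that share.

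Armcx1, a protein of the mitochondrial outer membrane, had the largest change of the 261 genes on the Xa. It stood at 6.35 FPKM in XRRc_XiKO and 0.371 FPKM in XRRc_XaKO, a change of 2.98, with 7.05 FPKM in XRRb_XaKO and 1.36 FPKM in XRRb_XiKO. XRRc_XaKO was the lowest column, and XRRc_XiKO lay between the XRRb values. Itm2a, an integral membrane protein, showed a similar order, with 2.37 FPKM in XRRc_XiKO, 0.206 FPKM in XRRc_XaKO, 7.14 FPKM in XRRb_XaKO and 0.592 FPKM in XRRb_XiKO (2.02). 4933402E13Rik fell from 4.17 to 0.952 FPKM (-1.68), and XRRc_XiKO was below XRRb_XaKO at 5.71 FPKM and XRRb_XiKO at 1.86 FPKM. Of the 12 tested extraembryonic and lineage genes, Itm2a was the 1 that rose and Gpc3 the 1 that fell on the Xa, and Cited1 differed by -0.13. Rises and falls on the Xa each made up 1.15% of all 261 tested genes.

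Tsix, the noncoding RNA antisense to Xist, was listed on the Xa at 7.06 FPKM in XRRc_XaKO, 1.34 FPKM in XRRc_XiKO and 0 in both XRRb groups. Its change was -2.04. On the Xi it stood at 14.3 FPKM in XRRc_XaKO and 18.7 FPKM in XRRc_XiKO, so its Xi share was 67.0% and 93.3%. The libraries carry no strand, and 32.6% of the exon bases of Tsix lie opposite Xist, so fragments of Tsix and Xist cannot be told apart there. Rlim, an activator of Xist, differed by 0.06 on the Xa and was at 0.029 FPKM or less on the Xi. Of the 5 tested genes of the X inactivation centre, none passed the limit on the Xi (median 0.02), and Tsix was the 1 that fell on the Xa (median 0.06). Among all 261 tested genes, 6 passed the limit on the Xi and 3 fell on the Xa (1.15%). Jpx, Ftx and 4933407K13Rik were not among the tested genes.

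**Figure D4:**
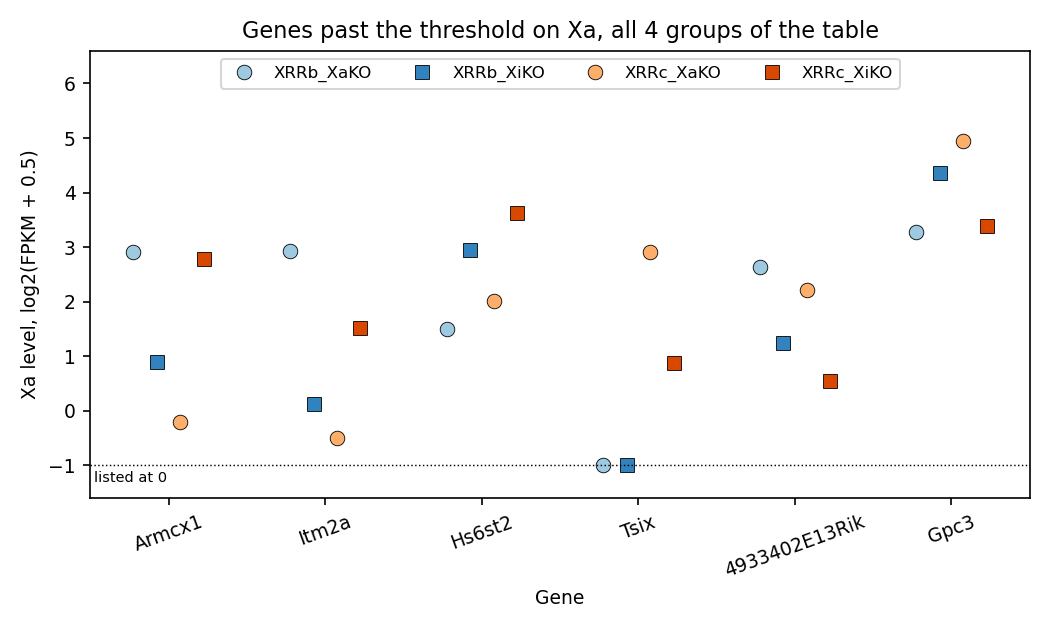
Xa level (log2(FPKM + 0.5), vertical axis) of the 6 genes past the limit on the Xa, 1 merged value for each of the 4 groups. For Armcx1 and Itm2a the XRRc_XaKO point is the lowest and XRRb_XaKO the highest, and Tsix is listed at 0 in both XRRb groups.

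For 7 of the 12 genes that changed, XRRc_XaKO was the column outside the range of the other 3. These genes were picked by the difference between the XRRc columns, which favours an XRRc column lying outside. The share over all tested genes is not given here, so the counts describe these genes and do not set XRRc_XaKO apart. On the Xa, XRRc_XaKO lay outside for 4 of the 6 genes (Armcx1, Itm2a, Gpc3 and Tsix) and XRRc_XiKO for 2 (Hs6st2 and 4933402E13Rik). On the Xi, XRRc_XaKO lay outside for 3 (Tceal8, Cetn2 and Ccdc22), XRRc_XiKO for 2 (Gripap1 and Gm5643) and neither for Morf4l2. Counting only distances of 1 or more on the log2 scale from all 3 other columns, XRRc_XiKO stood apart for 1 gene on the Xi, Gm5643, and for none on the Xa. XRRc_XaKO stood apart for 3 genes on the Xi (Ccdc22, Cetn2 and Tceal8) and for 2 on the Xa (Tsix and Armcx1). XRRb_XiKO did so for 4 on the Xi (Gm5643, Hprt, Rpl36a and Tceal8).

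None of the 10 tested genes known to escape inactivation rose or fell on the Xi (median 0.02) or on the Xa (median -0.14). Over all tested genes 6 of 261 passed the limit on each X, so a list of 10 without such a gene does not stand out. Kdm6a, Usp9x, Med14 and 5530601H04Rik were under 0.5 FPKM on the Xi in XRRc_XaKO and could not fall there by the limit. Eif2s3x, a translation initiation factor subunit, stood on the Xi at 28.9 FPKM in XRRc_XiKO and 31.5 FPKM in XRRc_XaKO, with shares of 43.8% and 42.6%. The RNA helicase gene Ddx3x had 52.8 and 56.5 FPKM, with shares of 40.0% and 38.7%. Both genes were slightly lower on each X in XRRc_XiKO, so their shares hardly moved. The nucleolar gene Utp14a differed by -0.34 on the Xi, 1810030O07Rik by 0.16 and Pbdc1 by -0.49. Kdm6a, a histone demethylase, was listed at 0 on the Xi in all 4 groups, and Usp9x and Med14 had Xi shares of 0.541% and 0.514% in XRRc_XiKO.

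Shares moved further in a few genes. By 10 points or more, 4 genes were higher in XRRc_XiKO (1.53%), Tsix, Armcx5, Gripap1 and Kdm5c, and 1 was lower (0.383%), Ccdc22. Armcx5, of the same family as Armcx1, had a share of 14.9% in XRRc_XaKO and 31.4% in XRRc_XiKO, beside 25.8% in XRRb_XaKO, 21.2% in XRRb_XiKO and 22.6% in WT. The XRRc groups were the lowest and the highest of these. Its Xi levels were 0.410 and 0.968 FPKM, below 1 FPKM in each group. Kdm5c, a histone demethylase that escapes inactivation, had 22.8% in XRRc_XaKO and 33.5% in XRRc_XiKO, with 36.1% and 35.5% in the XRRb groups and 26.0% in WT. XRRc_XaKO was therefore the low column for Kdm5c, at an Xi level of 0.722 FPKM. The next largest move was that of 5530601H04Rik, an escape gene, from 29.4% to 39.1%. XRRb_XiKO against XRRb_XaKO moved 3 genes upwards by as much (1.15%), Clcn5, Itm2a and Tceal8, and none downwards.

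As a set chosen on other cells, 30 genes with a WT share of 10% or more, Xist and Tsix left out, had a median Xi share of 36.2% in XRRc_XiKO and 33.3% in XRRc_XaKO. The medians were 36.4% in XRRb_XaKO, 37.5% in XRRb_XiKO and 31.6% in WT. From XRRc_XaKO to XRRc_XiKO the share was higher in 16 of them and lower in 13, with a median move of 0.44 points. One of the 30, Gm6568, was listed on the Xi alone in every group. The median size of the move was 2.52 points, against 1.79 points for the XRRb pair and 3.08 points between XRRc_XaKO and XRRb_XaKO. For 22 of the 30 genes the move was under 5 points. Their median change was -0.03 on the Xi and -0.10 on the Xa.

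**Figure D5:**
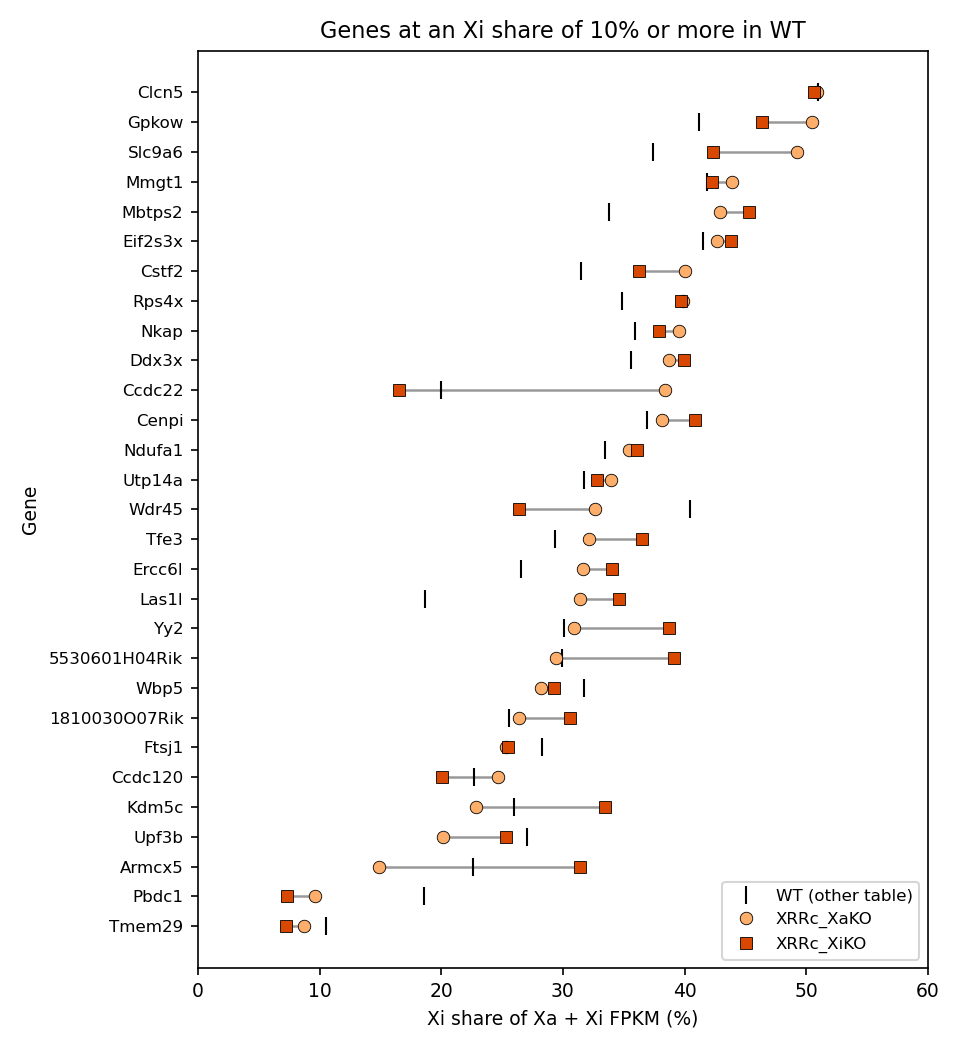
Xi share (percent of Xa plus Xi FPKM, horizontal axis) of 29 genes with a WT share of 10% or more (vertical axis), with XRRc_XaKO and XRRc_XiKO joined by a line and WT as a tick, leaving out Gm6568, which is at 100% throughout. The longest lines are those of Ccdc22 (38.4% to 16.5%), Armcx5 (14.9% to 31.4%) and Kdm5c (22.8% to 33.5%).

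In other gene groups few genes passed the limit, as over all tested genes, where 6 of 261 did on each X. None of the 14 tested genes listed for mitochondrial respiration and import rose or fell on either chromosome. Their medians were -0.0015 on the Xi and -0.07 on the Xa, and the list also holds Nsdhl, the enzyme of cholesterol synthesis. Of these 14, 6 were listed at 0 on the Xi in both XRRc columns. Ndufa1, a subunit of respiratory complex I, stood on the Xi at 108.4 FPKM in XRRc_XiKO and 110.4 FPKM in XRRc_XaKO. Of 25 chromatin and transcription regulators, Morf4l2 was the 1 that fell on the Xi and none passed the limit on the Xa (median -0.07). The 3 tested ribosomal protein genes had a median Xi change of -0.41, that of Rpl10, which stood on the Xi at 0.400 FPKM in XRRc_XiKO and 0.693 FPKM in XRRc_XaKO, and at 2159 FPKM on the Xa in XRRc_XaKO. All 3 (Rps4x, Rpl10 and Rpl36a) have near-identical copies on other chromosomes, so their Xi values are uncertain. Of the 5 tested Armcx and Gprasp genes, Armcx1 was the 1 past the limit, on the Xa.

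Along the chromosome, in RefSeq gene order, the genes that changed lay on both sides of Xist. Of the 169 tested genes on the centromere side of Xist, Gripap1 rose and Ccdc22 and Cetn2 fell on the Xi, while Hs6st2 rose and Gpc3, 4933402E13Rik and Tsix fell on the Xa. Of the 90 on the far side, Tceal8 rose and Morf4l2 and Gm5643 fell on the Xi, and Armcx1 and Itm2a rose on the Xa. Over all 261 tested genes, 6 passed the limit on each X, too few to compare the 2 sides. Tceal8 and Morf4l2, which changed in opposite directions on the Xi, lie in one run of tested genes with Bex1, Wbp5 and Ngfrap1 between them. The tested genes next to each of them, Bex2 and Bex1 around Tceal8 and Ngfrap1 before Morf4l2, stayed within the limit.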

How the data were processed

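Per the labels' protocols, polyadenylated RNA of mouse XEN cells was sequenced by Smart-seq2, a method without strand information. Build mm9, StringTie 2.1.1, HISAT2 2.2.0 and Trim Galore 0.6.4 are named in the submitters' processing notes. For the split of reads between alleles, no method is given in the sources used here. Per the file headers, the authors deposited FPKM values per X-linked gene with 1 merged column for each group and allele. The planned per-sample analyses could not be run. Ratios of low values among 28 genes showed no common step (at most 1 gene shared a ratio within 0.001), so the depth is unknown and counting error cannot be given.

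Xi shares, and differences of log2(FPKM + 0.5) with a size limit of 1, were computed for genes with a mean of 1 FPKM or more. Named genes were those past a limit or next to it, the X inactivation centre and escape genes, the highest Xi levels and members of the described lists, with others picked after seeing their values. The members and gene lists were chosen with earlier results of these data known. Gene order (260 of 261 genes) and promoters (231 genes) came from RefSeq, GRCm38.p6, another build than that of the files. Of 260 genes with a GENCODE M21 transcript, 22 had a near-identical copy on another chromosome and 17 a copy or overlapping transcript on the X (minimap2 2.31, 95% identity or more on at least 50% of a transcript). Alternatives were pseudocounts of 0.1 and 1, no filter or one of 5 FPKM, 2 rescalings, gene subsets, share limits of 5 and 20 points, and the XRRb groups as comparator. The calculation was tested on simulated data. The software was Python 3.11.15 with pandas 2.3.3, numpy 2.4.6 and matplotlib 3.10.9.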

Additional observations from a re-analysis of the deposited data

Results flagged for a closer look

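For 5 genes the XRRc pair (XRRc_XiKO minus XRRc_XaKO) and the XRRb pair (XRRb_XiKO minus XRRb_XaKO), which share no column, changed in opposite directions, each by 1 or more on the log2(FPKM + 0.5) scale. They are 5 of 261 tested genes, picked because they passed the limit in both pairs of these same data. Genes that passed it in both pairs in the same direction are given below, so the opposite ones do not stand out. None of these differences was tested, because each group is 1 merged column. On the Xa, Armcx1 changed by 2.98 in the XRRc pair and -2.02 in the XRRb pair, a difference of 5.00, and Itm2a by 2.02 and -2.81, a difference of 4.83. Gpc3 changed on the Xa by -1.55 and 1.08, a difference of -2.64. On the Xi, Morf4l2 changed by -1.35 and 2.44, a difference of -3.79, and Gm5643 by -1.58 and 1.06, a difference of -2.65. Both Morf4l2 and Gm5643 have a near-identical copy on another chromosome. In the same direction in both pairs were Tceal8 on the Xi (2.08 and 2.70), 4933402E13Rik on the Xa (-1.68 and -1.40) and Hs6st2 on the Xa (1.62 and 1.45).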

How the results depend on the processing

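No paired analysis was possible because the columns are merged over replicates, and for the same reason no replicate could be left out. Rescaling to an equal median Xa FPKM, or centring on the median Xa change, kept all 12 changed genes past the limit in their direction. With a pseudocount of 0.1, 19 genes passed the limit on the Xi (8 rose, 11 fell). With 1, Gm5643 (-0.999) and Gripap1 (0.68) no longer passed. With no filter, 12 of 953 genes passed on the Xa, and 11 of the 352 genes with a defined share moved by 10 points or more. With a filter of 5 FPKM, 3 of 168 genes passed on the Xa and 2 of 168 moved in share. Share limits of 5 and 20 points gave 11 and 2 of 261 genes, and 3 of 249 genes passed 10 points without escape genes, Xist and Tsix. The summed Xi share of XRRc_XiKO was 6.54% without genes that have near-identical copies and 4.11% without Xist, Tsix and Rps4x.

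Among these alternatives directions turned only with another comparator, and the cause was not tested. The others could not turn a direction, so that they kept it says nothing about stability. A filter, gene subset or share limit leaves a gene's value as it was, and a pseudocount cannot change its sign. The 2 rescalings shifted the changes only slightly beside the limit of 1. The comparisons with the XRRb groups share the XRRc_XiKO column. Against XRRb_XaKO the direction turned for Ccdc22 (1.34), Morf4l2 (0.81) and Tceal8 (-1.36) on the Xi, for Armcx1 (-0.14), Gpc3 (0.12), Itm2a (-1.41) and Tsix (1.88) on the Xa, and for the shares of Ccdc22 (11.5 points), Kdm5c (-2.60) and Tsix (-6.70). Against XRRb_XiKO it turned for Ccdc22 (1.50) and Tceal8 (-4.05) on the Xi, Tsix (1.88) on the Xa, and the shares of Ccdc22 (12.1 points), Kdm5c (-2.01) and Tsix (-6.70), and 8 genes moved in share. Gm5643 fell on the Xi against either comparator (-1.77 and -2.84).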
